A study of Homo sapiens with 6 samples.

Results

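The ASK1 stress kinase cascade and its thioredoxin switch were examined in 6 xenograft tumours of the human melanoma line 1205Lu. The set has 10 genes out of 24494 that the deposited table names by a single symbol. They are MAP3K5, which encodes the kinase ASK1, TXN, TXNIP, MAP2K3, MAP2K4, MAP2K6, MAP2K7, MAPK8, MAPK9 and MAPK14. They were taken by symbol, and the set was selected on the measured values of MAP3K5, which were lower in every Shp2 shRNA tumour. The values of MAP3K5 are therefore a description and carry no test. The other 9 genes joined it for their place in the pathway, with earlier results of these data known. Each of the 10 genes is read by 1 feature of the array, so no second feature checks any of them. 1205Lu is an established metastatic melanoma line. The cells were grown under the skin of NSG mice, which lack mature lymphocytes and natural killer cells but keep macrophages, vessels and connective tissue of mouse origin. Growth lasted about 6 weeks. Control tumours carried a non-target shRNA (3 tumours) and knockdown tumours an shRNA against Shp2, the product of PTPN11 (3 tumours). Both groups therefore carried a hairpin construct. Neither the hairpin sequences nor whether each group came from 1 transduced population or from separate mice is given in the sources used here. The spread between tumours may therefore be partly technical. If each group came from 1 population or 1 hairpin, the standard errors and p-values do not cover variation between populations or hairpins.

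ASK1 is a MAP kinase kinase kinase that responds to oxidants, death receptor signals and endoplasmic reticulum stress. Reduced thioredoxin, the product of TXN, binds ASK1 and holds it inactive, and oxidation of thioredoxin releases the kinase. TXNIP binds reduced thioredoxin and competes with its other partners. Active ASK1 phosphorylates the MAP kinase kinases MKK3 and MKK6 (MAP2K3 and MAP2K6), which activate p38, and MKK4 and MKK7 (MAP2K4 and MAP2K7), which activate JNK, with MKK4 also able to act on p38. JNK1 and JNK2 (MAPK8 and MAPK9) and p38 alpha (MAPK14) are the terminal kinases. This control acts on protein binding and phosphorylation, whereas the arrays measured transcript levels only.

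Promoter windows are shown for the 3 genes with the widest differences between groups, MAP3K5, MAP2K4 and TXNIP. Each window holds the 250 bases before the outermost transcription start in the RefSeq promoter table (GRCh38.p14), written 5′ to 3′ on the strand of the gene. Windows lie at chr6:136793092-136793341 (minus strand) for MAP3K5, at chr17:12020627-12020876 (plus strand) for MAP2K4 and at chr1:145996580-145996829 (minus strand) for TXNIP. Capitals mark matches to 6 motifs on either strand.
MAP3K5: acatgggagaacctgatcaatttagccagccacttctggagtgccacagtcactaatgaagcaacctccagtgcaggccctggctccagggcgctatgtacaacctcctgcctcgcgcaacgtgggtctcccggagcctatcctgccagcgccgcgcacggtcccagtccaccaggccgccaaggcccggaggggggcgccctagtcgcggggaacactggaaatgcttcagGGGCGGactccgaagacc
MAP2K4: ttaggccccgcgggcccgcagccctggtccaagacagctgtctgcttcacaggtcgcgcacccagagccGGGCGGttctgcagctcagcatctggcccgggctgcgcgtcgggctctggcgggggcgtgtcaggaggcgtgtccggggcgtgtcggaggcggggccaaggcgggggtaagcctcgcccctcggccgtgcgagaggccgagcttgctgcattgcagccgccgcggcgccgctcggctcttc
TXNIP: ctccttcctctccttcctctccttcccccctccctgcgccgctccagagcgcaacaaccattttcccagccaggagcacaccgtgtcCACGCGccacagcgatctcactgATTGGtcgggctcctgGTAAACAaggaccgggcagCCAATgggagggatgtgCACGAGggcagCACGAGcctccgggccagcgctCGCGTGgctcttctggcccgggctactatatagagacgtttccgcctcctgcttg

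The motifs searched were CACGNG, an E-box-like core of carbohydrate response elements, CCAAT, the GC box GGGCGG, the AP-1 site TGANTCA, the cyclic AMP response element TGACGTCA and the FOXO site GTAAACA. A match to CACGNG includes the E-box CACGTG, and no match to one motif overlapped a match to another in these windows. The TXNIP window held 4 CACGNG matches, at 163, 88, 77 and 55 bases before the start. It also held 2 CCAAT boxes, at 140 and 105 bases, and 1 FOXO site at 124 bases. Among 35116 promoter windows of the same length, 26.7% held CACGNG, 32.0% held CCAAT and 2.98% held GTAAACA. The MAP3K5 and MAP2K4 windows each held 1 GC box, at 18 and 181 bases before the start, as did 42.6% of all windows. TGANTCA (6.57% of windows) and TGACGTCA (1.65%) matched none of the 3. The table lists another start for MAP3K5, 614 bases away, and for TXNIP, 835 bases away, whose windows are not shown. These matches describe letters and not binding, which the arrays did not measure.

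PTPN11, the targeted gene, fell in the knockdown tumours. Its log2 values, given here and below in the order of tumours 1, 2 and 3, were 8.47, 8.76 and 9.05 with the non-target shRNA and 6.92, 6.34 and 6.88 with the Shp2 shRNA. The groups did not overlap, and on the linear scale knockdown was 24.2% of control. The log2 difference of -2.05 (SE 0.21) had an adjusted p of 0.034 in limma, with Benjamini-Hochberg adjustment over 12541 genes. PTPN11 was the only gene called, 0.00797% of those tested. The call was lost without control tumour 2 (adjusted p = 0.27), control tumour 3 (0.096) or any knockdown tumour (0.15, 0.20 and 0.15), and with no low-value filter (0.079), quantile normalization (0.077) or no variance moderation (1.00).

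The features of the 6 arrays gave similar background, with 1 array apart. The 95th percentile of 3575 negative control features lay at log2 values of 5.90 in control tumour 1 and between 5.09 and 5.43 in the others. The median of positive minus that of negative control features was 3.64 in control tumour 1 and between 4.11 and 4.47 in the others. Control tumour 1 also had the lowest control value for MAP3K5, TXN, TXNIP, MAP2K3, MAP2K6, MAP2K7 and MAPK14, and the part of the array in these values was not tested. Of 11 melanocyte lineage markers, 4 exceeded the negative control percentile in at least 3 arrays. The glial and melanocytic calcium-binding protein gene S100B (mean log2 8.88 in control and 8.63 in knockdown tumours) and the proteoglycan gene CSPG4 (7.40 and 7.68) exceeded it in 6 arrays each. The lineage transcription factor genes SOX10 (5.18 and 4.98) and PAX3 (5.56 and 5.62) exceeded it in 3 arrays each, and these were named after their values were seen. The adhesion gene MCAM, the pigmentation genes PMEL, MLANA, TYR, TYRP1 and DCT and their regulator MITF exceeded it in 0 arrays.

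Markers of other cell types overlapped between the groups in summed linear signal. Sums of 8 fibroblast markers ran from 394 to 464 in control and from 371 to 490 in knockdown tumours. COL1A1 (mean log2 7.90 and 7.86) and PDGFRB (6.89 and 6.92) were the brightest. These 2 exceeded the negative control percentile in 6 arrays each, and the other 6 markers exceeded it in 0 arrays. The 8 macrophage markers summed to between 150 and 238 in control and between 178 and 381 in knockdown tumours, and only the lysosomal gene CD68 (7.30 and 7.71) exceeded the negative control percentile. None of 7 matched endothelial (CLDN5, 4.51 and 4.37, and CDH5, 4.15 and 4.26, the brightest), 8 lymphocyte (NKG7, 4.47 and 4.55, and CD79A, 4.25 and 4.02) or 7 keratinocyte markers exceeded it in any array. Endothelial sums were 83.5 to 91.9 in control and 82.1 to 88.4 in knockdown tumours, lymphocyte sums 66.2 to 79.1 and 69.7 to 74.4, and keratinocyte sums 43.5 to 51.2 and 46.0 to 51.2. For heat shock and immediate early genes, which respond to handling, the sums ran from 2143 to 3033 in control and from 2317 to 3102 in knockdown tumours, with HSPA8 (10.33 and 10.36) and HSPH1 (8.72 and 8.83) the brightest. HSPA8 makes up much of that sum, so the immediate early genes are given by gene. Of the 9 genes of the list 0 were called, 1 had an unadjusted p under 0.05 and the groups of 1 did not overlap. Over all genes the shares were 0.00797%, 2.54% and 6.67% (either direction). EGR1 had log2 values of 6.72, 6.81 and 6.92 in control and 6.91, 7.46 and 7.31 in knockdown tumours (difference 0.41, unadjusted p = 0.049 and adjusted p = 1.00 in limma), and it exceeded the negative control percentile in all 6 arrays. IER2 differed by 0.33 and overlapped between the groups, and FOSB, below the percentile in every array, differed by 0.14 without overlap. FOS, also below the percentile in every array, differed by -0.00038 and overlapped between the groups. The part of these genes in the cascade values was not tested, and EGR1, IER2, FOSB and FOS were named after their values were seen. The features were designed on human transcripts, and the share of mouse RNA in the signal was not tested.

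MAP3K5, at the head of the cascade, was lower in each knockdown tumour than in any control tumour. Its log2 values were 7.24, 7.30 and 7.63 in the control group and 6.69, 6.57 and 6.73 in the knockdown group. A gap of 0.51 separated the lowest control from the highest knockdown value. The range was 0.39 among controls and 0.17 among knockdown tumours. The mean was 7.39 ± 0.21 (SD, n = 3) in control and 6.66 ± 0.09 (SD, n = 3) in knockdown tumours, a difference of -0.73 that puts knockdown at 60.5% of control on the linear scale. This is the pattern for which the gene was picked. On every array MAP3K5 exceeded the 95th percentile of that array's negative controls. In bulk tumour RNA, fewer cells that express a gene and less RNA per cell cannot be told apart. With any 1 tumour left out the difference lay between -0.80 and -0.61, and it was -0.80 without control tumour 1.

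**Figure D1:**
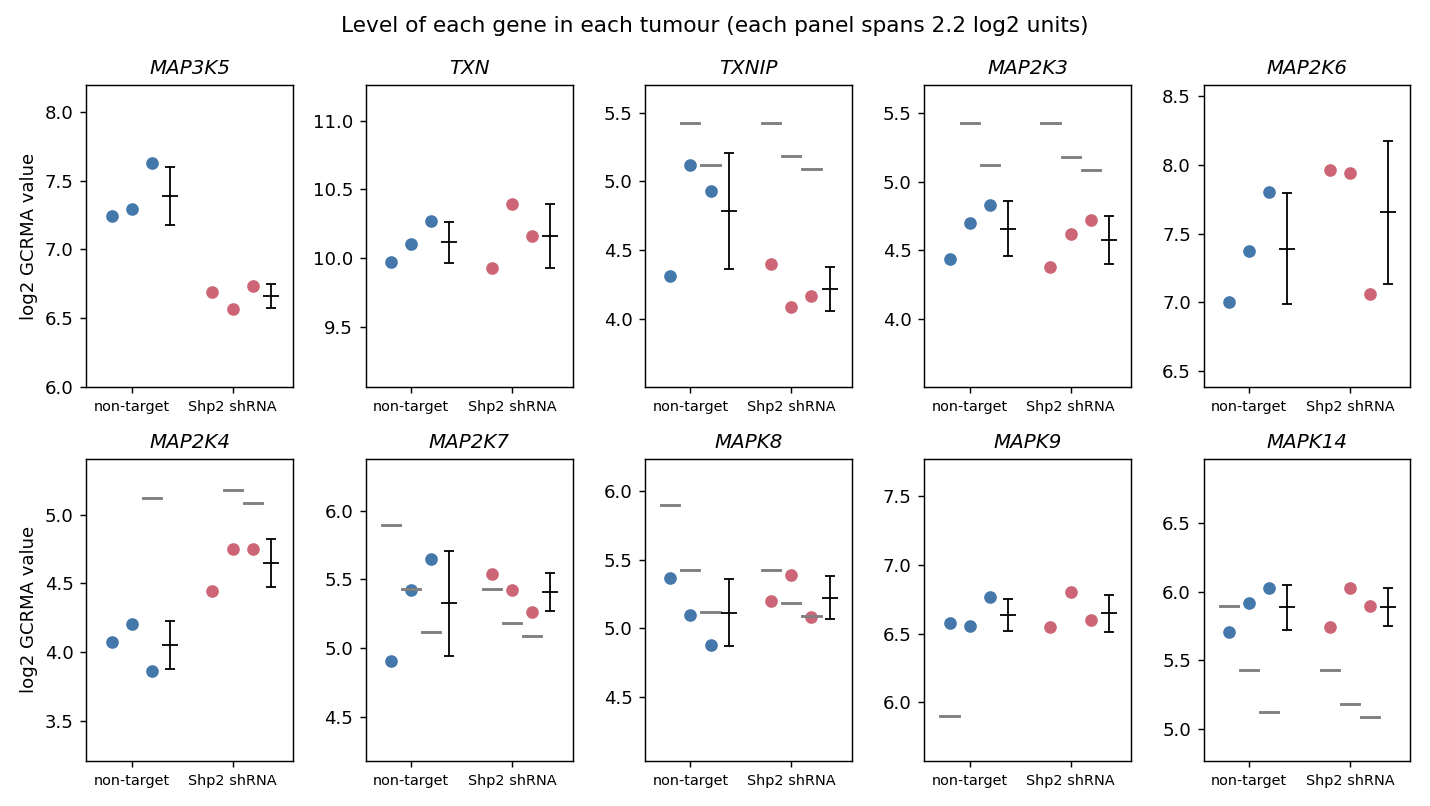
Log2 GCRMA value of each cascade gene in the 3 non-target tumours (blue) and the 3 Shp2 shRNA tumours (red), with tumours 1 to 3 from left to right in each group; black bars are means ± SD and grey dashes the 95th percentile of negative control features on the same array, where it falls inside the panel. MAP3K5 (7.24 to 7.63 against 6.57 to 6.73) and MAP2K4 (3.86 to 4.21 against 4.45 to 4.75) are the genes whose groups do not overlap, and MAP2K4 lies below the grey dashes.

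Thioredoxin transcript lay well clear of background in each of the 6 tumours, and the groups overlapped. TXN had log2 values of 9.97, 10.11 and 10.27 in control and 9.93, 10.39 and 10.16 in knockdown tumours, and the lowest and the highest of the 6 were both knockdown tumours. The difference of 0.05 (SE 0.18) had a 95% interval that ran on the linear scale from 0.787 to 1.36 times the control level. Differences beyond these bounds lie outside the interval, but smaller ones in either direction do not.

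TXNIP, the inhibitor of thioredoxin, had lower values in the knockdown group with 1 control tumour among them. Values were 4.31, 5.12 and 4.93 in control and 4.40, 4.08 and 4.17 in knockdown tumours on the log2 scale. Control tumour 1 lay below knockdown tumour 1, so the groups overlapped. The means were 4.79 ± 0.42 and 4.22 ± 0.16 (SD, n = 3 each). The difference of -0.57 (95% interval -1.06 to -0.08) did not pass in limma (adjusted p = 1.00). All 6 values lay below the negative control percentile of their array, at ranks between 81.1% and 93.7% of the negative control features, so the TXNIP feature was not above background by this measure. Left-out tumours moved the difference between -0.81 (without control tumour 1) and -0.41 (without control tumour 2).

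The kinases that ASK1 phosphorylates directly had differences between -0.08 and 0.60. MAP2K4, which encodes the JNK and p38 activator MKK4, had higher values in each knockdown tumour. Its log2 values were 4.08, 4.21 and 3.86 in control and 4.45, 4.75 and 4.75 in knockdown tumours, with a gap of 0.24 between the groups. The means were 4.05 ± 0.17 and 4.65 ± 0.18 (SD, n = 3 each), and knockdown was 1.52 times control on the linear scale (95% interval 1.17 to 1.97). The low-value filter asks for a log2 value above 4 in at least 3 arrays, and control tumour 3 lay below 4. MAP2K4 therefore passed that filter only with its higher knockdown values, and its interval, p and rank are descriptive. By limma's p, MAP2K4 stood at rank 23 of the 12541 genes (unadjusted p = 0.0055), and it did not pass after adjustment (adjusted p = 1.00). An exact permutation test (two-sided) gave a p of 0.1, the lowest possible with 3 tumours a group. As for TXNIP, no value exceeded the negative control percentile, and the 6 values ranked between 77.9% and 92.8% of the negative control features. The difference lay between 0.51 and 0.70 with any 1 tumour left out.

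MAP2K7, the JNK-specific activator MKK7, overlapped between the groups. It had values of 4.91, 5.42 and 5.65 in control and 5.54, 5.43 and 5.27 in knockdown tumours, so the control tumours held both the lowest and the highest value. Its difference of 0.08 had a 95% interval of -0.38 to 0.55, and 4 of the 6 values exceeded the negative control percentile.

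The p38 activators MAP2K6 and MAP2K3 spanned 0.97 and 0.45 log2 units over the 6 tumours. MAP2K6 (MKK6) had values of 7.00, 7.37 and 7.81 in control and 7.97, 7.94 and 7.06 in knockdown tumours. Knockdown tumours 1 and 2 were above every control tumour, while knockdown tumour 3 was near the lowest control. The difference of 0.26 had the largest standard error of the set, 0.28, and a 95% interval of -0.36 to 0.89. It moved to 0.07 without control tumour 1 and to 0.56 without knockdown tumour 3, and was 0.09 with array quality weights. All 6 values were above the negative control percentile. MAP2K3 (MKK3) had values of 4.44, 4.70 and 4.83 in control and 4.38, 4.62 and 4.72 in knockdown tumours. They overlapped (difference -0.08, 95% interval -0.47 to 0.30), and none was above the percentile.

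The terminal kinases had differences between 0.0024 and 0.11. MAPK14 (p38 alpha) had log2 values of 5.71, 5.92 and 6.03 in control and 5.74, 6.02 and 5.89 in knockdown tumours, with means of 5.89 in both groups. MAPK9 (JNK2) had values of 6.58, 6.56 and 6.77 against 6.55, 6.80 and 6.60. The 6 tumours spanned 0.32 log2 units for MAPK14 and 0.26 for MAPK9. For MAPK14 the 95% interval of the ratio of knockdown to control was 0.777 to 1.29, and for MAPK9 it was 0.792 to 1.29. MAPK8 (JNK1) had values of 5.37, 5.10 and 4.88 in control and 5.20, 5.39 and 5.08 in knockdown tumours, which overlapped (difference 0.11, 95% interval -0.29 to 0.51), and 1 of its 6 values was above the negative control percentile. Among the MAP kinases, MAPK9 exceeded it in 6 arrays and MAPK14 in 5.

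**Figure D2:**
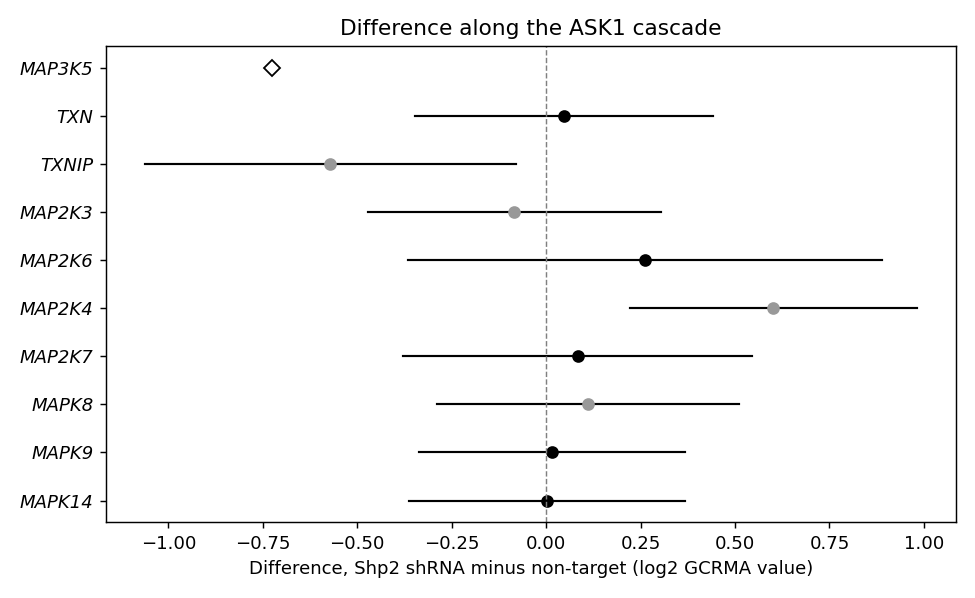
Difference between Shp2 shRNA and non-target tumours in log2 GCRMA value for each cascade gene, with 95% intervals of the limma fit; grey points mark genes above the negative control percentile in fewer than 3 arrays. MAP3K5 (open diamond, -0.73) has no interval because it was picked for this difference, TXNIP (-0.57) and MAP2K4 (0.60) are grey, and the terminal kinases lie between 0.0024 and 0.11.

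Along the whole cascade, 0 of the 9 genes other than MAP3K5 passed in limma at an adjusted p of 0.05, against 0.00797% of all genes tested. MAP2K4 and TXNIP, 2 of the 9, had an unadjusted p under 0.05, as did 2.54% of all genes. Without variance moderation the count after adjustment was also 0. The groups did not overlap for 1 of the 10 genes with lower values in knockdown tumours, MAP3K5, where 2.81% of all genes did so, and for 1 with higher values, MAP2K4, where 3.86% did so. Because the set was chosen with this contrast in view, nothing is read from these counts. Of the 10 differences 7 were positive and 3 negative, and their median was 0.03, beside 0.05 over all genes. By level, MAP3K5, TXN, MAP2K6 and MAPK9 were above the negative control percentile in all 6 arrays, MAP2K7, MAPK8 and MAPK14 in some, and TXNIP, MAP2K3 and MAP2K4 in none. All 10 passed the low-value filter, a log2 value above 4 in at least 3 arrays, MAP2K4 only with its knockdown values.

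Other kinases that feed the same MAP kinase kinases had differences between -0.32 and 0.42. Of 21 listed MAP3 kinases and their TAB subunits, 17 were kept, and 0 rose, 0 fell and 17 did not pass, with 0 at an unadjusted p under 0.05. Positive differences numbered 15 and negative ones 2, with a median of 0.07 beside 0.05 for all genes, of which 62.0% were positive. TAOK1 had mean log2 values of 8.01 in control and 8.07 in knockdown tumours, and MAP3K7, the kinase TAK1, had 7.56 and 7.59. ZAK, the ribotoxic stress kinase now named MAP3K20, had log2 values of 6.43, 6.66 and 6.75 in control and 6.93, 6.89 and 6.77 in knockdown tumours, which did not overlap (difference 0.25, SE 0.16). MAP3K6, the close relative ASK2, differed by 0.11. MAP3K6 was named after its value was seen. MAP3K15, the relative ASK3, did not pass the low-value filter.

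Proteins that bind ASK1 gave 0 of 17 kept genes past the threshold in either direction, with 0 at an unadjusted p under 0.05 and a median difference of 0.13. The highest signals came from genes of the YWHA adaptor family, whose proteins bind ASK1 at a phosphorylated serine. Of these, YWHAG had means of 9.08 and 9.21, YWHAQ 8.44 and 8.60 and YWHAZ 8.38 and 8.49 in control and knockdown tumours. Differences ran from -0.23 to 0.26 in the list.

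The thioredoxin system, which reduces thioredoxin and uses it to remove peroxide, gave 0 of 16 kept genes past the threshold and 0 at an unadjusted p under 0.05. Positive differences numbered 12 and the median was 0.13. The peroxiredoxin PRDX1 had means of 9.65 in control and 9.76 in knockdown tumours, PRDX6 8.23 in both and the mitochondrial PRDX3 7.84 and 7.90. TXNRD1, the cytosolic thioredoxin reductase, differed by 0.34 (95% interval -0.085 to 0.77). SRXN1, which repairs overoxidised peroxiredoxins, differed by 0.37 (95% interval -0.071 to 0.82), the largest of the list. Both genes overlapped between the groups. The other thioredoxin reductase genes, TXNRD2 and TXNRD3, differed by -0.06 and -0.20. TXNRD2 exceeded the negative control percentile in 0 arrays and TXNRD3 in 1. GLRX3 was the 1 gene of the 16 whose groups did not overlap (difference 0.27, SE 0.16), beside 6.67% of all genes in either direction. Nothing is read from that count. TXNRD1, TXNRD2, TXNRD3, SRXN1 and GLRX3 were named after their values were seen.

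Relatives of TXNIP and its transcriptional regulators gave 0 of 5 kept genes past the threshold, 0 at an unadjusted p under 0.05 and a median of 0.04. ARRDC3, an alpha-arrestin like TXNIP, had values of 7.38, 7.90 and 7.90 in control and 7.12, 6.67 and 7.85 in knockdown tumours on the log2 scale. Knockdown tumour 3 lay within the control range, so the groups overlapped (difference -0.51, 95% interval -1.14 to 0.12). The difference was -0.24 without knockdown tumour 2 and -0.83 without knockdown tumour 3. MLX, the partner of the Mondo factors, had means of 6.81 and 7.03, and MLXIP, which encodes MondoA, 5.12 and 5.11. ARRDC4, MLXIPL and ARRDC5 did not pass the low-value filter.

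Regulators and scaffolds around JNK and p38 also gave 0 calls. Among 6 kept relatives and scaffolds the median was 0.01 and 0 had an unadjusted p under 0.05. The scaffold SPAG9 had means of 7.59 and 7.56, the scaffold MAPK8IP3 5.33 and 5.22, and MAPK12 (p38 gamma) 5.21 and 5.26. Among 9 kept phosphatases the median was 0.02. DUSP10, which acts on JNK and p38, had means of 5.96 and 6.29, DUSP1 6.05 and 5.92 and DUSP16 5.80 and 5.71. DUSP10 overlapped between the groups, and its difference of 0.33 became 0.09 without knockdown tumour 3. DUSP8 was the only gene of that list with an unadjusted p under 0.05 in limma, beside 2.54% of all genes. Its values were 4.82, 4.72 and 5.02 in control and 4.48, 4.37 and 4.55 in knockdown tumours (difference -0.39, SE 0.16). Those values did not overlap, but none was above the negative control percentile, and the gene was named after its values were seen.

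Targets at the end of the pathway gave 0 of 13 kept substrates past the threshold and 0 at an unadjusted p under 0.05, with a median of 0.10. HSPB1, a chaperone phosphorylated downstream of p38, had means of 9.67 and 9.91, the ubiquitin ligase ITCH 7.91 and 8.10 and the transcription factor ATF2 7.84 and 7.91. JUN, the substrate that gives JNK its name, differed by 0.10 and JUND by -0.30. MAPKAPK3 was the 1 substrate of the 13 whose groups did not overlap (difference 0.22, SE 0.16), beside 6.67% of all genes in either direction. Nothing is read from that count. JUN, JUND and MAPKAPK3 were named after their values were seen.

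Genes that stress signals induce gave 0 of 5 kept genes past the threshold and a median of 0.21. GADD45A, a growth arrest gene, had means of 7.61 and 7.82, KLF6 6.01 and 5.94 and TNFAIP3 4.74 and 5.04 in control and knockdown tumours. GADD45B, whose protein activates the kinase MAP3K4, had an unadjusted p under 0.05, with values of 3.75, 4.17 and 4.30 in control and 4.64, 4.76 and 4.77 in knockdown tumours. The groups did not overlap (difference 0.65, SE 0.18, adjusted p = 1.00 in limma), but no array had the gene above the negative control percentile, and it was named after its values were seen. Control tumour 1 lay below 4, so GADD45B passed the low-value filter only with its higher knockdown values, and its p is descriptive. ATF3, IL6, IL8, PTGS2 and HMOX1 did not pass the low-value filter.

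Over the 8 lists, 88 of 113 genes were kept and 0 were called. An unadjusted p under 0.05 was found for 2 (2.27%, beside 2.54% of all genes). Positive differences made up 71.6% of the 88, beside 62.0% of all genes, and the median was 0.09, beside 0.05. The groups did not overlap for 4 genes with higher and 1 gene with lower values in knockdown tumours (4.55% and 1.14% of the 88, beside 3.86% and 2.81% of all genes). The medians moved with single tumours. Without control tumour 1, the array with the highest background, the median was -0.01 over the 88 genes and -0.01 over all genes. The list medians then were -0.07 for the other MAP3 kinases, -0.0054 for ASK1-binding proteins and -0.03 for the thioredoxin system. The list of TXNIP relatives and regulators had -0.10. Without control tumour 3 the median was 0.18 over the 88 genes and 0.11 over all genes. Among genes above the negative control percentile in at least 3 arrays the median was 0.08 over all genes and 0.11 over the lists. It was 0.23 for the phosphatases, of which 5 were left. The other list medians given here rest on 2 genes each. They were -0.15 for TXNIP relatives and regulators, -0.07 for relatives and scaffolds of JNK and p38 and 0.07 for stress-induced genes.

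**Figure D3:**
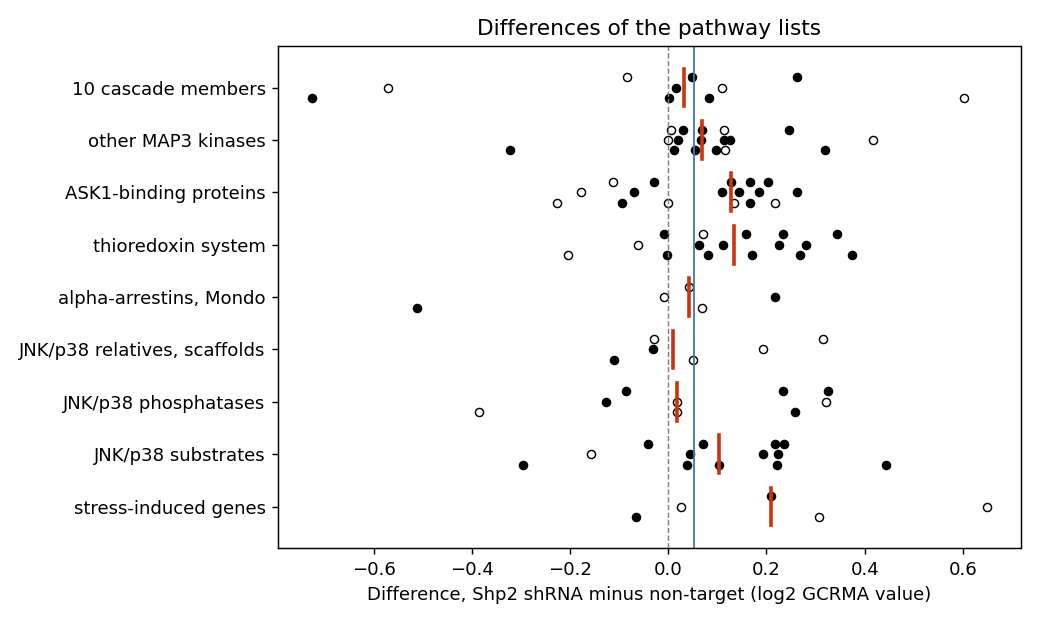
Difference between Shp2 shRNA and non-target tumours in log2 GCRMA value for each kept gene of the cascade and of 8 related lists; filled points are genes above the negative control percentile in at least 3 arrays, open points the others, red bars list medians and the blue line the median of all 12541 genes (0.05). The medians of the 8 lists lie between 0.01 and 0.21, and the outermost points are MAP3K5 (-0.73) and GADD45B (0.65).

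The genes whose profile over the 6 tumours was most like that of MAP3K5 were found by the root mean square difference of log2 values after each gene was centred on its own mean. F13A1, which encodes a subunit of a clot-stabilising transglutaminase, was nearest at 0.11, with values of 5.17, 5.07 and 5.70 in control and 4.49, 4.34 and 4.57 in knockdown tumours. It exceeded the negative control percentile in 1 array. KHDRBS3, an RNA-binding protein, and SOX5, a transcription factor, followed at 0.14 each, and the non-coding RNAs ZNFX1-AS1 and SCARNA9 at 0.16 each. SOX5 exceeded the percentile in 2 arrays, and KHDRBS3, ZNFX1-AS1 and SCARNA9 in 6 each. In all 5 the knockdown values lay below the control values, which the choice by likeness favours. Within the cascade TXNIP was nearest to MAP3K5 at 0.25 and MAP2K4 farthest at 0.71.

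**Figure D4:**
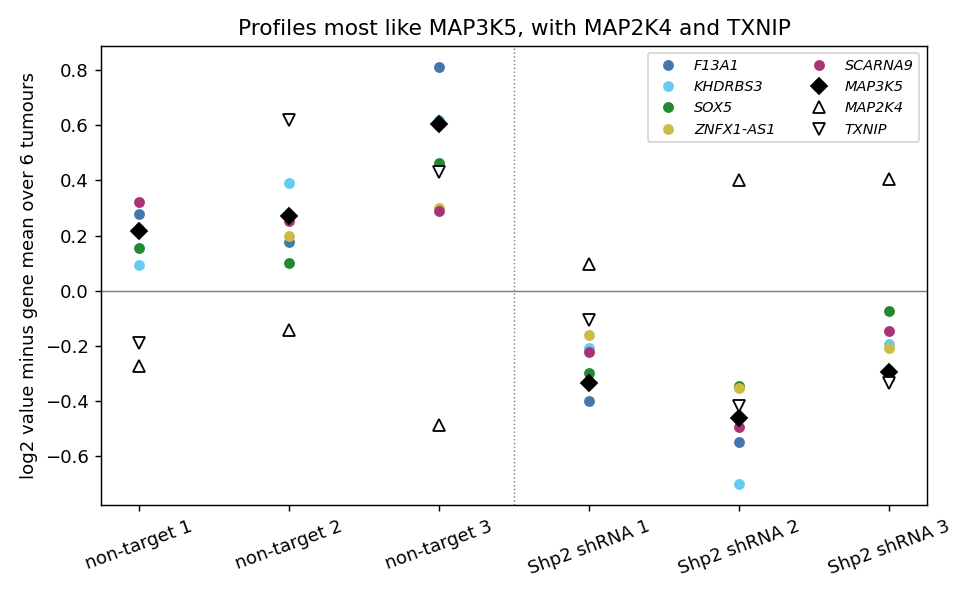
Log2 value minus the gene's mean over the 6 tumours, by tumour, for MAP3K5 (black diamonds), the 5 genes most like it (coloured circles), MAP2K4 (upward triangles) and TXNIP (downward triangles). MAP3K5 and the 5 genes lie above 0 in the non-target tumours and below 0 in the Shp2 shRNA tumours, MAP2K4 lies on the opposite side, and TXNIP is below 0 in non-target tumour 1.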

How the data were processed

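RNA of 6 tumours was labelled with biotin and hybridised to Affymetrix arrays, per the labels' protocols. The authors made the deposited values, read here as log2, with GCRMA, per the submitters' processing notes. That method removes background estimated from the probes' base content, makes the arrays comparable and gives 1 value per feature. The values range from 0.049 to 13.3, and their log base, the array design and the software version are not stated in the labels or the files. The 2 deposited tables hold the same values (largest difference 0). Of 53617 features, those with 1 symbol (26419, 24494 distinct symbols) were used. The feature with the highest mean stood for a gene, and 12541 genes above a log2 value of 4 in at least 3 arrays were kept. Groups, taken from the sample titles, were compared with limma 3.58.1 in R 4.3.3 (lmFit and eBayes, no covariate, two-sided, Benjamini-Hochberg, 4 residual and 5.83 prior degrees of freedom). Differences are knockdown minus control, and 3 arrays a group limit the precision (median SE 0.19). The tests were checked on simulated data. The cascade genes and lists were chosen with earlier results of these data known. Of 172 listed genes, 171 matched a symbol. Genes named are PTPN11, the cascade, the 3 brightest kept genes of each pathway list (2 of each marker list, where as many were kept), any called gene and the 5 genes most like MAP3K5. Others are said to be named after their values were seen. Alternatives were other filters, feature choices, normalizations and variance models, a block for the sample number, and the omission of each array in turn.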

Additional observations from a re-analysis of the deposited data

How the results depend on the processing

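Under 16 alternatives, 6 of which leave out 1 tumour each, 0 of the 9 cascade genes other than MAP3K5 and 0 genes of the pathway lists passed. The MAP3K5 difference stayed between -0.80 and -0.61, MAP2K4 stayed positive and TXNIP stayed negative in each alternative that kept them. The groups of MAP3K5 and MAP2K4 did not overlap, so leaving out a tumour could not turn their signs. No stability is read from this. The filter at the negative control percentile removes MAP2K4, TXNIP, MAP2K3 and MAPK8, so it gives them no value. The PTPN11 difference was -2.05 with no filter, -2.09 after quantile normalization and -2.05 without variance moderation, each no longer called, and -2.19 to -1.86 with 1 tumour left out. The count of genes called was 0 in the first 3 of these and 0 to 1 with 1 tumour left out. With no filter more genes share the adjustment. For the other losses the cause was not tested.

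With the sample number as a replicate block, 5 genes were called, and MAP2K4 (adjusted p = 0.41) and TXNIP (0.70) were not. Deviations from the group mean had correlations of 0.42, -0.034 and 0.17 in same-numbered tumours. Between tumours of different number they ran from -0.43 to 0.33. So few values cannot decide whether the numbers pair the tumours. The titles give only a number, so the main fit has no pairing.

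With 1 tumour left out, 42 of the 44 differences of cascade and list genes named by rule, MAP3K5 aside, moved by over 1.5 times or turned sign. MAP2K4 and TXNIP did not. Their differences were the widest of the 44, and a wide difference meets such a proportional limit more easily, so no stability is read from this. Both genes lay below the negative control percentile in every array. Differences near 0 turned sign in some alternatives, and none was called. Quantile normalization gave -0.029 for HSPA8, -0.011 for MAP3K7, -0.023 for MAPK14, -0.023 for MAPK9 and -0.0092 for PDGFRB. Array quality weights gave -0.013 for MAP2K7, -0.0021 for MAP3K7, -0.0035 for MAPK14 and 0.065 for PRDX6. Median centring gave 0.024 for MLXIP, 0.031 for PRDX6 and 0.0026 for SPAG9. With 1 tumour left out, the cascade ranges that crossed 0 were -0.070 to 0.16 for TXN, -0.19 to 0.013 for MAP2K3, -0.13 to 0.25 for MAP2K7, -0.0068 to 0.24 for MAPK8, -0.060 to 0.084 for MAPK9 and -0.087 to 0.074 for MAPK14. Among the other named genes they were -0.041 to 0.18 for ATF2, -0.15 to 0.035 for COL1A1, -0.47 to 0.18 for DUSP1, -0.094 to 0.13 for HSPA8, -0.16 to 0.27 for HSPH1, -0.30 to 0.072 for KLF6, -0.087 to 0.16 for MAP3K7, -0.013 to 0.11 for MAPK12, -0.12 to 0.43 for MLX, -0.17 to 0.095 for MLXIP, -0.15 to 0.24 for PDGFRB, -0.048 to 0.24 for PRDX1, -0.12 to 0.22 for PRDX3, -0.11 to 0.18 for PRDX6, -0.13 to 0.029 for SPAG9, -0.072 to 0.16 for TAOK1 and -0.016 to 0.29 for YWHAG.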
